A study of Homo sapiens with 6 samples.

Results

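The genes described here encode the nuclear part of the mitochondrial respiratory chain, together with ATP synthase. They were chosen by symbol, as every listed gene whose name begins with NDUFA, NDUFB, NDUFC, NDUFS or NDUFV and a digit, with UQCR, with COX4 to COX8 or with ATP5, and the 4 SDH subunit genes. The pattern found 91 of the 20683 genes listed: 40 named for complex I, 4 for complex II, 10 for complex III, 16 for complex IV and 21 for complex V. Of these rows 6 are not subunit genes: NDUFA6-DT and NDUFB2-AS1 (noncoding neighbours), UQCRBP1 and ATP5F1EP2 (pseudogenes), ATP5S (a coupling factor) and ATP5IF1, the gene of the inhibitor protein of ATP synthase. NDUFA4 is counted under complex I by its name, although its protein is a subunit of complex IV. The pattern does not reach NDUFAB1 and CYC1, subunit genes with other names, which are given apart.

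RNA was taken in bulk from HT-1080, an established line of human fibrosarcoma cells. The inhibitor group (3 libraries) was exposed for 24 h to SLV-8472-01, a code-named inhibitor of IRAK4, a kinase of Toll-like and interleukin-1 receptor signalling, at 5 mM as labelled. That unit was not checked. The control group (3 libraries) had 0.1% DMSO for the same time. The series calls the libraries of a group biological replicates, and nothing says that they came from separate cultures, so the p-values measure the spread between these samples, which may be technical. In bulk RNA, fewer cells with a transcript and less of it per cell cannot be told apart.

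The respiratory chain sits in the inner mitochondrial membrane. Complex I takes electrons from NADH and complex II from succinate, and both hand them to ubiquinone. Complex III passes them to cytochrome c and complex IV to oxygen, while complexes I, III and IV pump protons that drive ATP synthase, called complex V. A few core subunits are encoded in mitochondrial DNA and are not analysed here, and all others are encoded in the nucleus, translated in the cytosol and imported.

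Library totals ranged from 9162281 to 13184553 counts. Replicates differed by more than counting noise. Chi-square divided by its degrees of freedom was 5.39 to 6.95 for pairs of inhibitor libraries, 10.4 for DMSO 1 with 2, 38.8 for DMSO 1 with 3 and 25.9 for DMSO 2 with 3. DMSO 3 thus stood apart from its group, and results that rest on it are given with and without it. Without DMSO 3 the DMSO group has 2 libraries, and the inhibitor group 3. All 8 fibrosarcoma markers were detected, with a summed level of 10582 to 11037 CPM, the library-scaled counts used throughout, in the inhibitor and 10207 to 11919 CPM in the DMSO libraries. The summed epithelial markers lay between 0.9 and 2.32 CPM in all 6 libraries, with CDH1 and KRT5 at 0. The muscle genes CKM, MYH7 and TNNT2 and the blood genes PTPRC, CD3E and HBB had no count. The summed blood markers reached at most 0.245 CPM and the summed muscle markers at most 0.0761 CPM. Of 3 endothelial markers 2 were detected, with a summed level of 0.802 to 2.2 CPM in the inhibitor and 0.782 to 1.46 CPM in the DMSO libraries.

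Many respiratory chain genes are known to be under the control of NRF1 and of ETS-family factors such as GABP, so the promoter letters of the 2 genes that changed are shown first, followed by 2 subunit genes with the most motif matches ahead of any annotated exon. The sequences are from RefSeq (GRCh38.p14, while the counts were made on hg19), 5′ to 3′ in the direction of the gene, ending before the first annotated exon base, with matches in capitals. The NRF1-type motif searched was GCGCA, any base and GCGC in a row, and the ETS-type motif CCGGAAG, each on both strands and with no overlap in the sequences shown. NDUFV3 (chr21:42893059-42893264, plus strand) and NDUFS4 (chr5:53560389-53560632, plus strand) held neither, NDUFB4 (chr3:120596086-120596308, plus strand) held 2 NRF1-type and UQCR11 (chr19:1605491-1605712, minus strand) 2 ETS-type matches.
NDUFV3: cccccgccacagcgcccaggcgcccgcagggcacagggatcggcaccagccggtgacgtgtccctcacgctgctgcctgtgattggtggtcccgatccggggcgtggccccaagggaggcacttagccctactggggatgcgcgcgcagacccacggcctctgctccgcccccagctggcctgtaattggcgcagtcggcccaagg
NDUFS4: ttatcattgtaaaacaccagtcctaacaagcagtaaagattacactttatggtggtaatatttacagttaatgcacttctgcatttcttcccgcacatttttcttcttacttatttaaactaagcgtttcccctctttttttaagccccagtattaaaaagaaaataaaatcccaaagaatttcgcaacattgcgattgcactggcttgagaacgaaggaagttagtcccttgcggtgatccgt
NDUFB4: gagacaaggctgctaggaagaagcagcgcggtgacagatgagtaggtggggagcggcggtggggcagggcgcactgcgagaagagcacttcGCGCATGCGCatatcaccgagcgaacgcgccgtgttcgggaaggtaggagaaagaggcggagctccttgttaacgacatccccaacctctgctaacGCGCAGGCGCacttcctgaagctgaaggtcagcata
UQCR11: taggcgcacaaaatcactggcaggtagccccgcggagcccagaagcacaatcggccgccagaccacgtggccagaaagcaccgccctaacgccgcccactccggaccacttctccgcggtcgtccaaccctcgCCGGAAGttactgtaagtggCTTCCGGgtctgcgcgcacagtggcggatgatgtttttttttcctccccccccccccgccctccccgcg

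A promoter was found by symbol for 72 of the 91 genes. In windows of 250 bases before the start, 14 of these 72 (19.4%) held an NRF1-type match, against 5.53% of all 27305 promoters. An ETS-type match was found in 17 of 72 (23.6%), against 8.82% of all. The 27305 promoters were not limited to coding or expressed genes and were not matched for GC content, so the sets compared are unlike. SDHD and UQCR11 held both kinds, and SDHA had the most NRF1-type matches, with 4. A match is a description of letters and shows no binding, and no promoter activity was measured.

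The comparison of inhibitor with DMSO asked how the messages for the respiratory chain stood after 24 h of the compound. Most stayed close to their control level. NDUFV3 rose and NDUFS4 fell, and both encode accessory subunits of the part of complex I that binds NADH. No gene of complexes II, III, IV or V passed the test. Of the 80 genes with enough counts to be tested, 2 (2.5%) passed, against 3.87% of all 11216 genes tested. These were 1 higher gene, against 1.95% of all genes, and 1 lower gene, against 1.92%. The test was the quasi-likelihood test of edgeR, with p-values adjusted over all genes by the Benjamini-Hochberg method and a threshold of 0.05. The log2 fold change lay within 0.25 of 0 in 59 of the 80 (73.8%), against 63.5% of all tested genes. It was negative in 49 and positive in 31, with a median of -0.0819, against -0.00438 over all tested genes.

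The 5 complexes had unlike medians. The median log2 fold change was -0.111 for complex I (37 genes), -0.118 for complex II (4), -0.191 for complex III (8), -0.0875 for complex IV (11) and 0.0785 for complex V (20). It was negative in 26 of 37 genes of complex I, 3 of 4 of complex II, 7 of 8 of complex III and 8 of 11 of complex IV, and positive in 15 of 20 of complex V. Each median kept its sign under every alternative tried. They are descriptions with no test, over all tested rows that the symbol pattern placed in each complex.

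**Figure D1:**
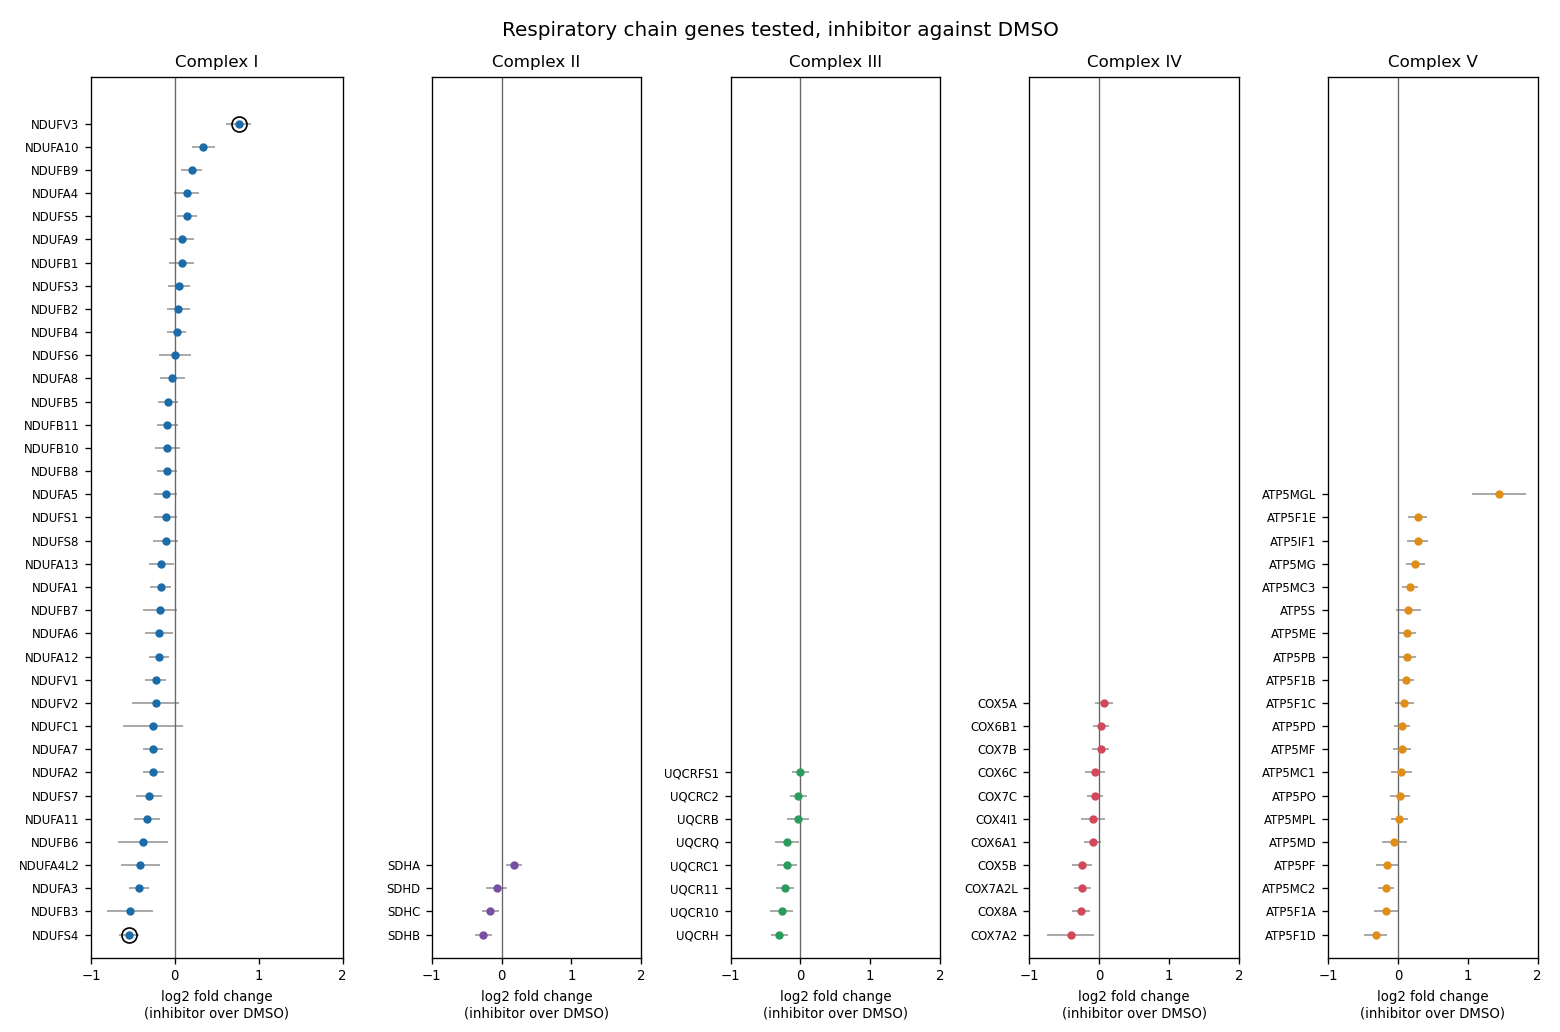
Log2 fold change of inhibitor over DMSO (x axis, edgeR) for the tested genes (y axis, 1 not shown), by complex, with bars of 1 SE from the test. Ringed points, NDUFV3 at 0.76 and NDUFS4 at -0.55, passed the adjusted threshold, and most others lie near 0.

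Summed over all members, the inhibitor libraries held 12952, 13197 and 13389 CPM and the DMSO libraries 13433, 13480 and 13742 CPM. The groups did not overlap, but their means, 13179 ± 219 and 13552 ± 166 CPM (SD, n = 3), were close. The sums over all tested genes were 971341 to 983410.5 CPM with the inhibitor and 1001949 to 1029916 CPM with DMSO. These mostly restate the TMM scaling factors of the libraries, 1.016 to 1.029 with the inhibitor and 0.9702 to 0.9973 with DMSO. Every sum here carries that scaling, so the separation is not shown to be particular to the members. With library totals only, the median log2 fold change of the members was -0.0216, and sums on that scale were not computed. For complex I the sums were 3865, 4036 and 4162 CPM with the inhibitor and 4277, 4288 and 4131 CPM with DMSO, so that DMSO 3 lay among the inhibitor values. For complex V they were 4625, 4756 and 4757 against 4307, 4492 and 4905 CPM, where DMSO 3 was the highest of all. A sum follows its most abundant amplicons, and levels of different genes are not comparable on this panel.

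**Figure D2:**
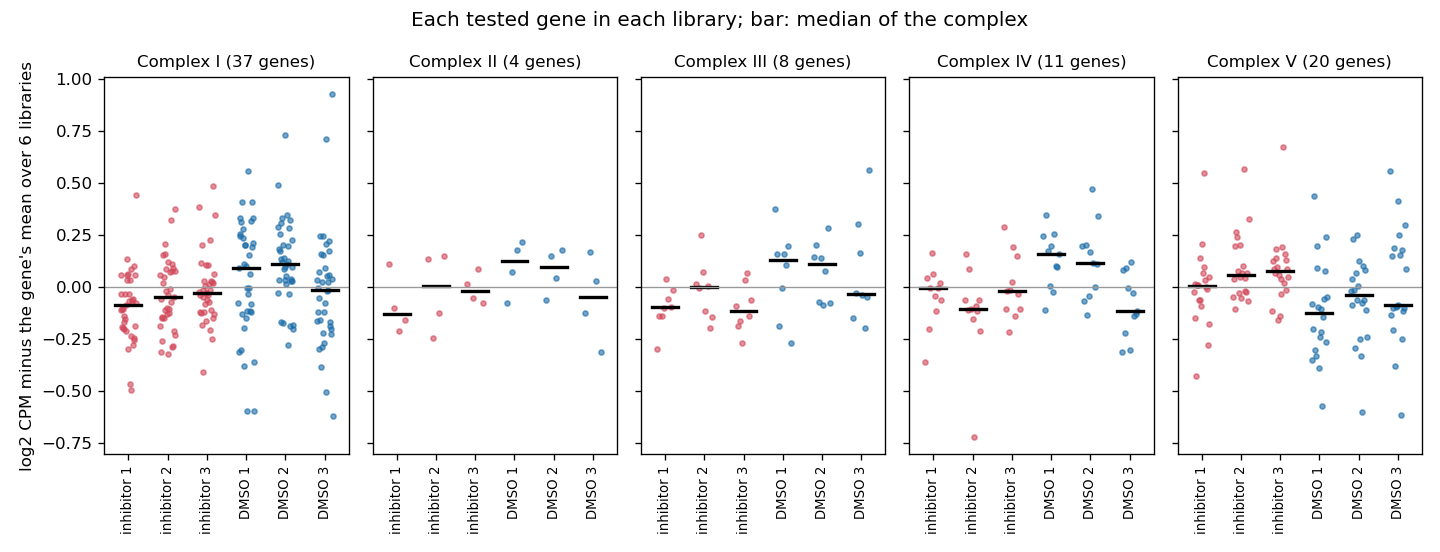
Log2 CPM of each tested gene in each library minus that gene's mean over 6 libraries (y axis), by complex, with inhibitor libraries in red, DMSO libraries in blue and a bar at the median. In complex I the median is 0.0932 in DMSO 1 and 0.113 in DMSO 2, but -0.0137 in DMSO 3; in complex V it is above 0 in all 3 inhibitor and below 0 in all 3 DMSO libraries.

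Complex I binds NADH at the tip of its matrix arm, the N module, carries electrons through the Q module to ubiquinone, and pumps protons in its membrane arm. NDUFV3, an accessory subunit of the N module, stood at 30.9, 29.5 and 28.9 CPM in the inhibitor libraries and at 17.7, 20 and 14.7 CPM in DMSO 1 to 3. Every inhibitor value was above every DMSO value. Its mean rose from 17.5 ± 2.64 to 29.8 ± 1.05 CPM (SD, n = 3). On the log2 scale this was 0.76 (SE 0.145, adjusted p by edgeR = 0.00936). It was also called without DMSO 3 (0.65, edgeR adjusted p = 0.000522), but without inhibitor 1, 2 or 3 the edgeR adjusted p was 0.0754, 0.0712 and 0.0514, with log2 fold changes of 0.73, 0.77 and 0.78.

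NDUFS4 encodes an accessory subunit that holds the N module in place late in assembly, and loss of the gene is a known cause of Leigh syndrome. It stood at 69.1, 68.8 and 70.5 CPM with the inhibitor and at 104, 105 and 94.7 CPM with DMSO. The groups were far apart, and the inhibitor values nearly coincided. The mean fell from 101 ± 5.71 to 69.5 ± 0.896 CPM (SD, n = 3). On the log2 scale this was -0.55 (SE 0.117, adjusted p by edgeR = 0.0187). Without DMSO 3 it was -0.61 (edgeR adjusted p = 5.63e-05). The call was lost without inhibitor 1, 2 or 3 (edgeR adjusted p = 0.134, 0.139 and 0.096) and without DMSO 2 (0.099), with log2 fold changes between -0.52 and -0.56.

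The other genes of the N module mostly lay below their control level without passing. Of the 10 tested genes of the module, NDUFV3 and NDUFS4 included, 8 had a negative log2 fold change, against 50.6% of all tested genes. NDUFV2 was among the 8, and its sign rested on DMSO 3. The median of the 10 was -0.208, against -0.00438 over all tested genes. Their summed level was 683 ± 37.5 CPM with the inhibitor and 784 ± 25.5 CPM with DMSO (SD, n = 3). The fall of NDUFS4 from 101 to 69.5 CPM was part of that difference. Median and sum without NDUFV3 and NDUFS4 were not computed. NDUFA2, NDUFA7 and NDUFA12, all accessory subunits, were lower in every inhibitor than in every DMSO library. Their log2 fold changes were -0.26 (SE 0.125), -0.26 (SE 0.119) and -0.19 (SE 0.123), with edgeR adjusted p = 0.267, 0.25 and 0.428. Of all tested genes 11.8% were lower without overlap. NDUFV1, which carries the flavin and the NADH site, was at -0.23 (edgeR adjusted p = 0.325), and NDUFS1, the largest iron-sulfur subunit, at -0.11 (0.694). NDUFS6 was at 0.00 (SE 0.189), with inhibitor values of 65.7, 64.3 and 109.9 CPM on either side of its DMSO values of 89.6, 80.5 and 68.8 CPM.

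NDUFV2, an iron-sulfur subunit beside NDUFV1, shows how DMSO 3 can set a sign. It stood at 59.5, 66.3 and 57.4 CPM with the inhibitor and at 41.5, 54.7 and 119 CPM with DMSO. Every inhibitor value lay above DMSO 1 and 2 and below DMSO 3. Its log2 fold change was -0.23 (edgeR adjusted p = 0.713) with all libraries and 0.33 (edgeR adjusted p = 0.0441) without DMSO 3.

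The 5 tested Q module genes had a median log2 fold change of -0.109 and none passed. NDUFS3, a core subunit of the module, was at 0.05 (SE 0.129), NDUFS8, an iron-sulfur subunit, at -0.11 (SE 0.146), and NDUFA5, an accessory subunit, at -0.11 (SE 0.138). NDUFS7, which carries the last iron-sulfur cluster, was at -0.31 (SE 0.159, edgeR adjusted p = 0.299) and at -0.48 without DMSO 3 (edgeR adjusted p = 0.00376). Its inhibitor values were 34.2, 35.0 and 41.2 CPM and its DMSO values 53.9, 47.4 and 35.2 CPM, so DMSO 3 lay within the inhibitor range.

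The other 20 tested subunit genes of complex I, most of them of the membrane arm, had a median of -0.0899 and none passed. NDUFA3, a small membrane-arm subunit, came closest. It stood at 57.0, 54.6 and 57.6 CPM with the inhibitor and at 81.2, 78.0 and 68.7 CPM with DMSO, with no overlap. Its log2 fold change was -0.43 (SE 0.122, edgeR adjusted p = 0.0666), and it was called by DESeq2 (adjusted p = 0.0307, where 5.3% of all genes were called), with the GC trend of each library removed (edgeR adjusted p = 0.0421) and without DMSO 3 (-0.51, edgeR adjusted p = 0.000618). It was not called with replicate number as a block (edgeR adjusted p = 0.13), nor by edgeR without inhibitor 1, 2 or 3 (0.238, 0.291 and 0.191). Without DMSO 1 or 2 it was not called either (edgeR adjusted p = 0.115 and 0.214). NDUFA10, an accessory subunit with a kinase-like fold, lay the other way, at 63.3, 63.3 and 79.4 CPM against 48.9, 59.7 and 54.3 CPM. The groups again did not overlap, and its log2 fold change was 0.34 (SE 0.137, edgeR adjusted p = 0.193).

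NDUFA4, the complex IV subunit, stood at 0.14 on the log2 scale (edgeR adjusted p = 0.679). NDUFA4L2, its hypoxia-induced relative, was low at 3.35, 3.83 and 2.81 CPM with the inhibitor and 5.08, 4.72 and 3.37 CPM with DMSO. The groups overlapped through DMSO 3, and its log2 fold change was -0.41 (SE 0.231, edgeR adjusted p = 0.347). NDUFAB1, the mitochondrial acyl carrier protein that the symbol pattern misses, was at -0.07 (edgeR adjusted p = 0.861).

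**Figure D3:**
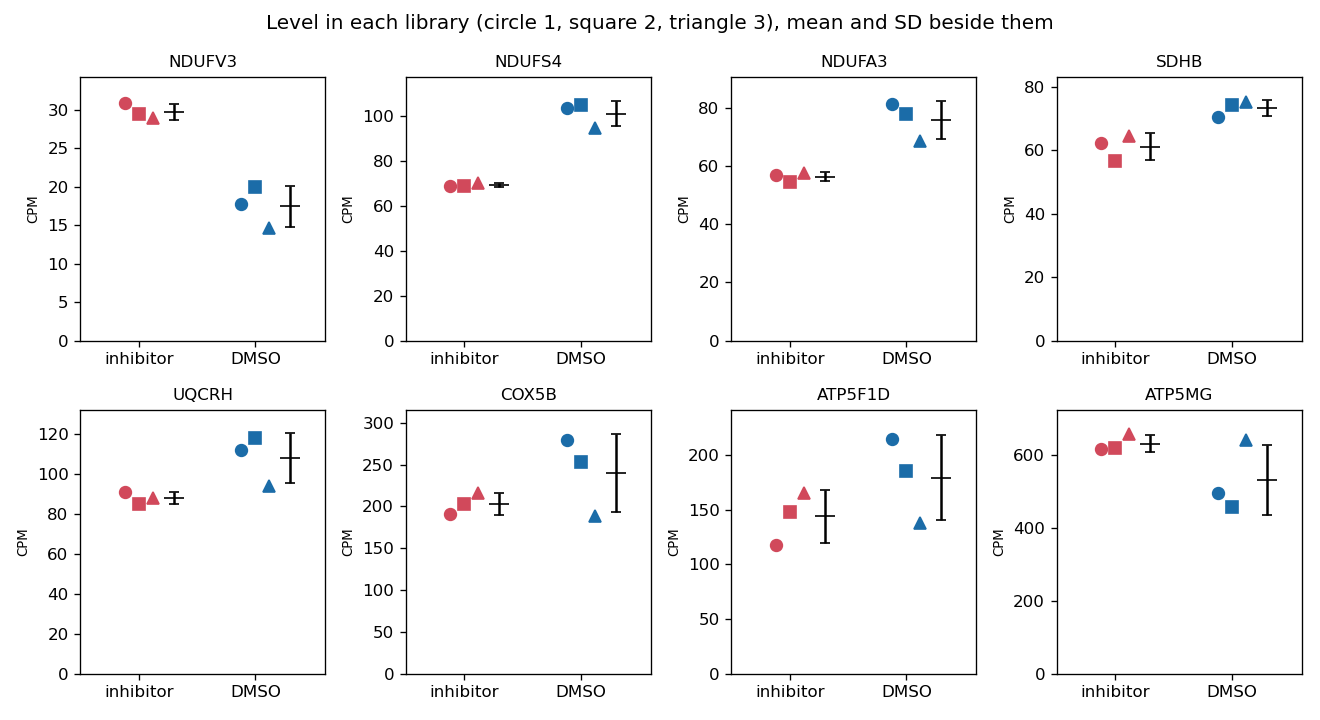
CPM (y axis, from 0) of 8 respiratory chain genes in the 3 inhibitor libraries (red) and the 3 DMSO libraries (blue), with mean and SD beside them. NDUFV3, NDUFS4, NDUFA3, SDHB and UQCRH show no overlap of the groups, while in COX5B, ATP5F1D and ATP5MG the triangle of DMSO 3 lies within or next to the inhibitor values.

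Complex II is succinate dehydrogenase, an enzyme of both the chain and the citric acid cycle, and is the only complex with no mitochondrially encoded subunit. The genes of its catalytic subunits had fold changes of opposite sign, and neither passed the test. SDHA, which binds the flavin and oxidizes succinate, stood at 113, 115 and 106 CPM with the inhibitor and at 99.3, 100.4 and 96.2 CPM with DMSO, all inhibitor values being higher (log2 fold change 0.18, SE 0.115, edgeR adjusted p = 0.429). SDHB, its iron-sulfur partner, stood at 62.4, 56.6 and 64.6 CPM against 70.5, 74.4 and 75.3 CPM, all inhibitor values being lower (-0.26, SE 0.12, edgeR adjusted p = 0.248). The difference between the genes was not tested.

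The membrane anchors of complex II overlapped between groups. SDHC was at 89.0, 94.8 and 109.5 CPM with the inhibitor and 117, 106 and 105 CPM with DMSO (-0.16, SE 0.125, edgeR adjusted p = 0.516). SDHD was at 81.2, 101 and 86.2 CPM against 106, 103 and 73.1 CPM (-0.07, SE 0.152, edgeR adjusted p = 0.841). No complex II gene was called without DMSO 3 either.

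Complex III, the cytochrome bc1 complex, had its lowest values in its small subunits. UQCRH, the hinge protein that contacts cytochrome c1, stood at 91.2, 84.8 and 88.2 CPM with the inhibitor and at 112, 118 and 94.0 CPM with DMSO, with no overlap. Its log2 fold change was -0.30 (SE 0.126, edgeR adjusted p = 0.212), or -0.40 without DMSO 3 (edgeR adjusted p = 0.0044). UQCR10 stood at 14.2, 17.6 and 16.4 CPM against 22.7, 19.3 and 15.7 CPM, DMSO 3 lying among the inhibitor values (-0.27, SE 0.165, edgeR adjusted p = 0.395). The Rieske iron-sulfur protein gene UQCRFS1 and the core protein gene UQCRC2 were near 0, at 0.00 (SE 0.122) and -0.03 (SE 0.122), and CYC1, the cytochrome c1 gene that the pattern misses, was at -0.03 (SE 0.151).

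UQCRQ, which encodes a small accessory subunit of complex III, made up much of the summed level and differed most among the DMSO libraries. It stood at 648, 593 and 628 CPM with the inhibitor and at 543, 621 and 968 CPM with DMSO. DMSO 3 exceeded every other library. Its log2 fold change was -0.19 with and 0.08 without DMSO 3, and the summed level of complex III, 1213, 1180 and 1201 CPM against 1189, 1257 and 1547 CPM, carried the same high value.

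Complex IV, cytochrome c oxidase, had no gene past the threshold. COX8A, the smallest subunit, stood at 182, 164 and 177 CPM with the inhibitor and at 212, 241 and 175 CPM with DMSO (-0.26, SE 0.132, edgeR adjusted p = 0.286). COX5B, a matrix-side subunit that binds zinc, stood at 190.4, 203 and 216 CPM against 279, 253 and 188 CPM (-0.24, SE 0.144, edgeR adjusted p = 0.38). In both genes DMSO 1 and 2 were the highest values and DMSO 3 lay at the inhibitor level. Without DMSO 3 both were called lower, at -0.39 (edgeR adjusted p = 0.00484) and -0.40 (edgeR adjusted p = 0.00371).

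The highest fold changes of complex IV were close to 0. COX5A, the partner of COX4 on the matrix side, was at 69.2, 74.8 and 62.3 CPM with the inhibitor and 62.1, 64.0 and 71.0 CPM with DMSO (0.07, SE 0.126). COX6B1, on the side of cytochrome c, was at 602, 498 and 532 CPM against 539, 520.3 and 534 CPM (0.03, SE 0.112). COX7A2L, whose product helps complexes III and IV to join, was the single complex IV gene with no overlap, at 91.3, 93.0 and 89.9 CPM against 118, 107 and 97.0 CPM (-0.24, SE 0.122, edgeR adjusted p = 0.304).

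The tissue isoforms of complex IV were absent or nearly so. COX4I2, COX6A2, COX7A1 and COX7B2, known for lung, muscle or testis, had no count in any library, where 3 counts, the limit that a count of 0 allows, would be 0.228 to 0.327 CPM. COX6B2, the testis form, had 2, 9 and 1 counts with the inhibitor and 2, 5 and 7 with DMSO. All 4 muscle markers were at or near 0 in the same libraries, at most 1 count.

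ATP synthase (complex V) makes ATP in its F1 head as protons turn its c ring, and a stalk and a set of small membrane subunits hold the parts together. Most of its genes lay slightly above control, and none passed. The 20 genes counted include ATP5IF1 and ATP5S, which are not subunit genes, and ATP5MGL, a copy of ATP5MG, all with positive fold changes. Among the other genes the medians were 0.0927 for F1, 0.0531 for the c ring and 0.0553 for the stalk and membrane subunits. In the F1 head the signs differed. ATP5F1E, the epsilon subunit, stood at 59.1, 70.6 and 64.7 CPM with the inhibitor and at 47.7, 58.2 and 54.8 CPM with DMSO, with no overlap (log2 fold change 0.28, SE 0.131, edgeR adjusted p = 0.265). ATP5F1D, the delta subunit beside it on the rotor, stood at 118, 148 and 166 CPM against 215, 186 and 138 CPM (-0.32, SE 0.168, edgeR adjusted p = 0.305), and at -0.50 without DMSO 3 (edgeR adjusted p = 0.00194).

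The catalytic beta subunit gene ATP5F1B was at 0.12 (SE 0.107) and the gamma subunit gene ATP5F1C at 0.09 (SE 0.133). ATP5F1A, the alpha subunit, changed sign with DMSO 3. It stood at 367, 361 and 345 CPM with the inhibitor and at 293, 369 and 549 CPM with DMSO, where DMSO 3 was the highest of all. Its log2 fold change was -0.17 (SE 0.178) with all libraries and 0.10 (SE 0.102) without DMSO 3, and neither passed (edgeR adjusted p = 0.646 and 0.532).

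The c ring is built from a single mature protein that 3 genes encode. ATP5MC1 stood at 60.5, 66.7 and 67.6 CPM with the inhibitor and 72.4, 66.2 and 48.6 CPM with DMSO (0.05, SE 0.149). ATP5MC2 stood at 434, 445 and 406 CPM against 483, 539 and 425 CPM (-0.17, SE 0.119). ATP5MC3 stood at 237, 222 and 224 CPM against 201, 206 and 202 CPM (0.17, SE 0.11). ATP5MC3 alone of the 3 did not overlap between groups, and none passed (edgeR adjusted p = 0.886, 0.463 and 0.436).

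ATP5IF1, whose protein blocks ATP synthase when it runs backwards, stood at 51.3, 60.2 and 57.9 CPM with the inhibitor and at 40.4, 41.6 and 57.9 CPM with DMSO. DMSO 1 and 2 were the lowest values, and DMSO 3 lay within the inhibitor range. Its log2 fold change was 0.28 (SE 0.152, edgeR adjusted p = 0.329), or 0.45 without DMSO 3 (edgeR adjusted p = 0.00495). ATP5MG, the membrane subunit g, stood at 617, 619 and 659 CPM against 496, 459 and 641 CPM, and showed the same order (0.25, edgeR adjusted p = 0.315, and 0.39 without DMSO 3, edgeR adjusted p = 0.00369).

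ATP5MGL is a near-identical copy of ATP5MG, and its few reads may in part come from that gene. It had 42 counts summed over the inhibitor group and 16 summed over the DMSO group, a ratio of 2.76 after scaling (exact 95% interval 1.52 to 5.26, counting error only). The values were 1.22, 1.25 and 1.35 CPM against 0.469, 0.456 and 0.45 CPM, with no overlap. The log2 fold change was 1.45 (SE 0.385, edgeR adjusted p = 0.0528), and limma-voom called it (adjusted p = 0.045, where 3.96% of all genes were called), while DESeq2 did not (adjusted p = 0.142).

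Over the 80 tested genes, 14 (17.5%) had inhibitor and DMSO values that did not overlap, against 25.5% of all tested genes. Of these 6 were higher, against 13.7% of all genes, and 8 lower, against 11.8%. An unadjusted edgeR p under 0.05 was reached by 8, against 19.5% of all tested genes. Both shares were below those over all genes.

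DMSO 3 differed more from DMSO 1 and 2 than these did from each other. The median SD of a tested member on the log2 scale was 0.177 in the DMSO and 0.106 in the inhibitor libraries. Over these genes the median absolute log2 difference was 0.138 for DMSO 1 with 2, 0.28 for DMSO 1 with 3 and 0.258 for DMSO 2 with 3, against 0.171, 0.331 and 0.265 over all tested genes. DMSO 3 was the highest or the lowest of the 6 libraries in 39 of the 80 genes (48.8%), and in 51.0% of all tested genes. It stood more than 0.5 above the mean of DMSO 1 and 2 on the log2 scale in 5 genes, led by NDUFV2 (1.32) and NDUFB6 (0.84), and more than 0.5 below it in 9, led by NDUFB7 (-0.84) and NDUFA6 (-0.69).

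Without DMSO 3, edgeR called 23 of the 80 genes (28.8%), against 21.9% of all tested genes in the same fit. The 6 higher genes (7.5%, against 10.8% of all genes) were ATP5IF1, ATP5MG, ATP5MGL, NDUFA4, NDUFV2 and NDUFV3. The 17 lower genes (21.2%, against 11.1%) were 9 of complex I (NDUFA2, NDUFA3, NDUFA6, NDUFA7, NDUFA11, NDUFA13, NDUFB7, NDUFS4 and NDUFS7), UQCRH, UQCR10 and UQCR11 of complex III, COX5B, COX7A2L and COX8A of complex IV, and ATP5F1D and ATP5MC2 of complex V. In the same fit 30.1% of 73 cytosolic and 7.89% of 76 mitochondrial ribosomal protein genes were lower, so a raised share is not particular to the members. Both calls made with all libraries were among the 23. The medians of complexes I, II, III, IV and V were then -0.174, -0.222, -0.139, -0.218 and 0.127.

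**Figure D4:**
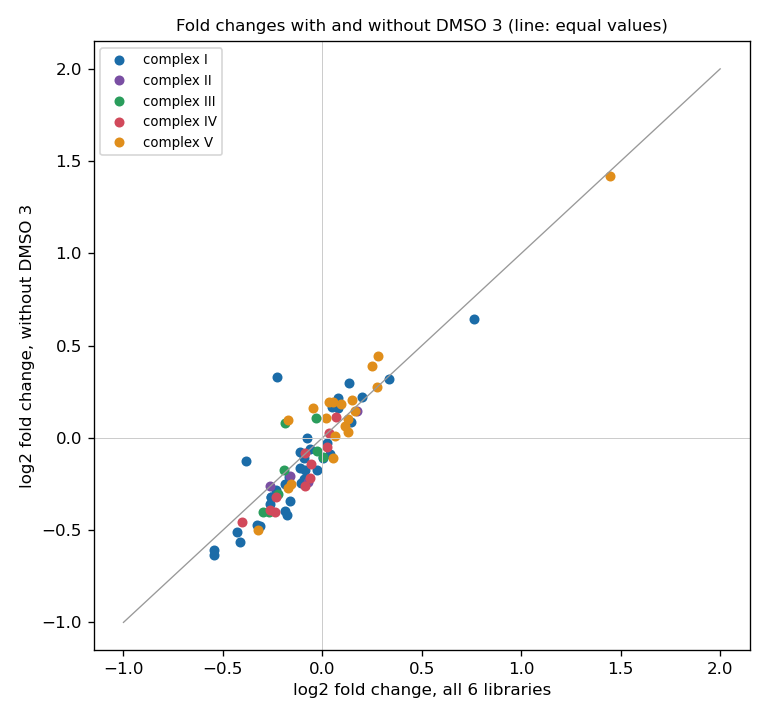
Log2 fold change of each of the 80 tested genes with all 6 libraries (x axis) and without DMSO 3 (y axis), coloured by complex, with a line of equal values. Most genes of complexes I to IV lie below 0 on both axes, and NDUFV2 (-0.23 and 0.33) is the point farthest above the line.

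The difference of DMSO 3 from DMSO 1 and 2 and the fold change without DMSO 3 both moved with the GC content of the transcripts. Both are measured from DMSO 1 and 2, so the trends are not independent, and which libraries carry them was not tested. Across the 80 genes, which share their libraries and are not independent, the difference of DMSO 3 from the mean of DMSO 1 and 2 had a Pearson correlation of -0.446 with GC content (Spearman -0.423). The fold change without DMSO 3 had -0.375 (Spearman -0.381), and that with all libraries -0.238 (Spearman -0.252). In the 27 genes of highest GC content (53.1 to 68.1%), 10 were lower and 0 higher without DMSO 3, while in the 27 of lowest GC content (35.9 to 46.0%) 3 were lower and 4 higher. Of all genes tested in that fit, whatever their GC content, 11.1% were lower and 10.8% higher. Shares over all genes of the same GC ranges were not computed, so the split is not shown to be particular to the members. The part of GC content in these calls was not tested.

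With each library's GC trend removed, edgeR called 4 of the 80 genes, against 6.42% of all tested genes: NDUFV3 (0.76, adjusted p = 0.00415) and ATP5MGL (1.40, adjusted p = 0.0456) higher, NDUFS4 (-0.61, adjusted p = 0.00895) and NDUFA3 (-0.39, adjusted p = 0.0421) lower. NDUFV3 has a GC content of 50.8% and NDUFS4 of 42.4%.

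**Figure D5:**
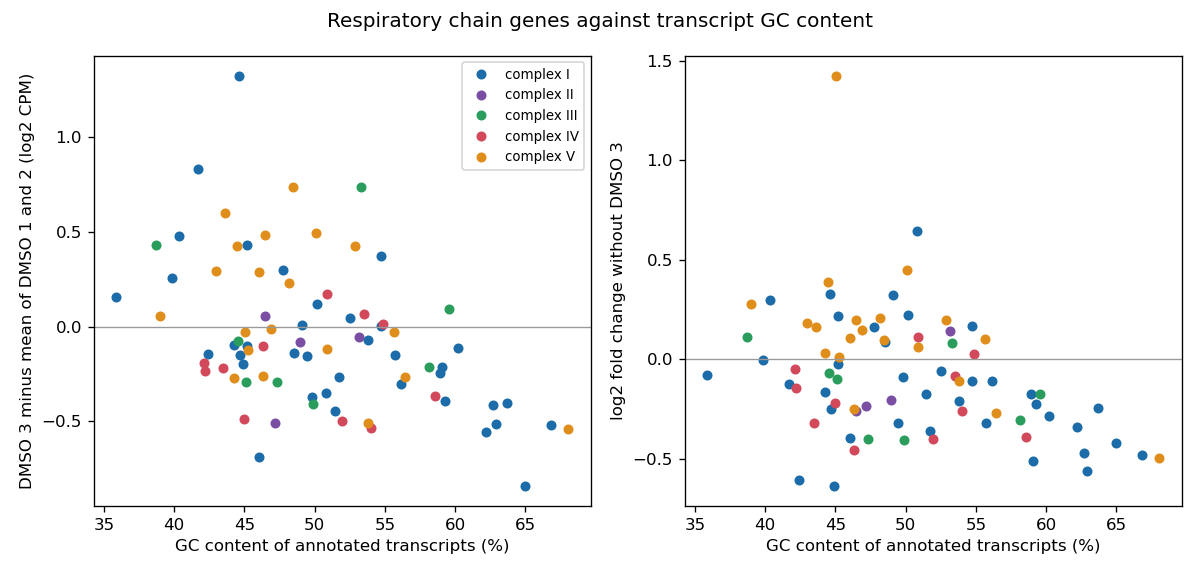
GC content of the annotated transcripts in percent (x axis) for the 80 tested genes, against the log2 difference of DMSO 3 from the mean of DMSO 1 and 2 (left) and the log2 fold change without DMSO 3 (right). Genes above 60% GC lie below 0 in both panels.

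Of the 91 rows 11 had too few counts for the test. Besides the complex IV isoforms these were ATP5F1EP2 with no count, UQCRBP1 and UQCRHL with counts in DMSO 3 alone, NDUFA6-DT and NDUFB2-AS1 with at most 7 counts in a library, and NDUFC2. NDUFC2 encodes a membrane-arm subunit and had 9, 6 and 2 counts with the inhibitor and 5, 6 and 11 with DMSO, a ratio of 0.813 (exact 95% interval 0.405 to 1.6). The counts do not tell ratios within that interval apart, and the interval covers counting error only.

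Over the lists of other mitochondrial genes, which build and serve the chain, 2 of 184 tested genes passed (1.09%), against 3.87% of all tested genes. No gene passed in the assembly lists, which held 13 tested genes for complex I (NDUFAB1 among them), 4 for complex II, 6 for complex III, 22 for complex IV and 3 for complex V. Their medians were -0.0155, 0.0158, 0.0905, -0.15 and 0.0785. The smallest p-values of these lists belonged to NDUFAF3 (-0.20, edgeR adjusted p = 0.36), SDHAF4 (-0.73, 0.125), TTC19 (-0.18, 0.501), COA5 (-0.45, 0.104) and TMEM70 (0.48, 0.0788).

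Among 14 genes of electron carriers and ubiquinone synthesis, PDSS1 rose and none fell (median -0.0426). PDSS1 encodes a subunit of the enzyme that makes the ubiquinone side chain and stood at 13.5, 16.6 and 12.4 CPM with the inhibitor and 10.0, 8.29 and 8.77 CPM with DMSO (0.65, SE 0.17, edgeR adjusted p = 0.0496). The call was lost with size factors of DESeq2 (adjusted p = 0.0523), a mean count of at least 50 (0.053), limma-voom (0.0515), without inhibitor 1, 2 or 3 (0.162, 0.282 and 0.0946) and without DMSO 2 (0.196). CYCS, the cytochrome c gene, named after its values were seen, had no overlap, at 206 ± 9.46 and 150.3 ± 14.9 CPM (SD, n = 3), and did not pass (0.45, SE 0.12, edgeR adjusted p = 0.0506). It was called by DESeq2 (adjusted p = 0.0192), by limma-voom (0.0456) and by edgeR without DMSO 3 (0.00622).

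In the citric acid cycle SUCLG2 fell and none of the other 13 genes passed (median -0.0833). SUCLG2, a subunit of the succinyl-CoA ligase that makes the substrate of complex II, stood at 68.9, 80.5 and 76.9 CPM with the inhibitor and 128, 119.6 and 112 CPM with DMSO (-0.67, SE 0.123, edgeR adjusted p = 0.00756). Without inhibitor 1, 2 or 3 its edgeR adjusted p was 0.0912, 0.0532 and 0.054. None of 15 regulators of mitochondrial biogenesis passed (median 0.158). TFB1M, a mitochondrial ribosomal RNA methyltransferase, was at -0.59 (edgeR adjusted p = 0.086), TFAM, which packages mitochondrial DNA, at 0.29 (0.244), NRF1 at 0.23 (0.421) and GABPA at -0.10 (0.791), the last 3 given for their role.

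None passed among 7 genes of nucleotide and phosphate exchange (SLC25A4 had the smallest p, 0.36, edgeR adjusted p = 0.106), 10 of protein import (TIMM50, -0.50, 0.121) and 76 mitochondrial ribosomal proteins (MRPS15, 0.39, 0.0825). The medians were 0.0435, -0.0416 and -0.00899. The cytosolic ribosomal proteins, another large family of abundant messages, had a median of -0.0906 over 73 genes. RPL21, a gene with many pseudogene copies that may share its reads, was the single one past the threshold (-0.83, SE 0.155, edgeR adjusted p = 0.00813), and it did not pass without inhibitor 1 (0.0784), inhibitor 3 (0.0662) or DMSO 2 (0.06).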

How the data were processed

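RNA was read through short PCR products with the Ion AmpliSeq Transcriptome Human Gene Expression Panel per the labels' protocols, and sequenced by Ion Torrent Proton. The deposited values are raw counts per gene symbol. HTSeq, DESeq2 1.20.0 and hg19 are listed in the submitters' processing notes without roles, and no aligner is named in the sources used here. No molecular identifiers are named, so counts of a product need not be independent molecules, and intervals and floors cover counting error only.

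edgeR 4.0.16 (R 4.3.3) was run on all genes: filterByExpr (minimum count 10, minimum total 15), TMM scaling, an intercept and the group, and Benjamini-Hochberg adjustment over 11216 genes. The SE is the absolute log2 fold change divided by the square root of F. CPM are scaled by TMM, and 2 was the prior count for log2 CPM. GC content came from GENCODE transcripts matched by symbol (98.9% of tested genes), and its trend was removed by loess (span 0.5). DESeq2 1.42.0 and limma 3.58.1 served as alternatives. The code was also run on simulated counts with the same dispersion for every gene, no deviating library and no GC trend. That run therefore does not cover these features of the data. Named in full were members past the threshold, in complexes I, III, IV and V the 2 highest and 2 lowest fold changes at a mean of at least 5 CPM, complex II, isoforms, copies and the c ring, and, of each other list, members past the threshold or else the smallest p. Any other member, and CYCS, CYC1, NDUFAB1, PPARGC1A, TFAM, NRF1 and GABPA, was given in addition for its role or after its values were seen. Single genes left unnamed are not reported here. The members and lists were chosen with earlier results of these data known.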

Additional observations from a re-analysis of the deposited data

How the results depend on the processing

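NDUFV3 and NDUFS4 were called under every alternative with all 6 libraries, namely other scaling, other filters, DESeq2, limma-voom, a replicate block and GC removal. The count of respiratory chain genes called was 2 of 80 with the settings reported. It was 21 (26.2%) with library quality weights, where 23.2% of all genes were called, and 4 with the GC trend removed (6.42% of all). With library totals only, DESeq2 and limma-voom it was 3 (4.44, 5.3 and 3.96% of all), and with no filter 3 of 86 (5.32%). The added gene was ATP5MGL with library totals and limma-voom, and NDUFA3 with DESeq2 and no filter. With a library left out it was 0 to 23: 0 without inhibitor 1, 2 or 3 (1.1, 0.87 and 1.32% of all), 1 without DMSO 2 (1.63%) and 23 without DMSO 3 (21.9%). With library totals only, the median log2 fold change of all members was -0.0216, that of complex I -0.0524 and that of complex V 0.138. With a library left out, the medians ranged from -0.174 to -0.0913 for complex I, from -0.222 to -0.0547 for complex II, from -0.218 to -0.0165 for complex IV and from 0.0572 to 0.127 for complex V. The other mitochondrial lists had 2 of 184 genes called, and 1 with size factors of DESeq2, 5 with library totals only, 8 of 187 with no filter, 1 of 175 with a mean count of at least 50, 32 with quality weights (17.4%), 1 with the replicate block, 5 with the GC trend removed and 0 to 37 with a library left out, the highest without DMSO 3 (20.1%). Of all genes 3.87% were called with the settings reported, and 3.9, 4.44, 5.32, 4.32 and 2.92% with size factors, library totals, no filter, the mean count and the block. Fold changes near 0 changed sign: UQCRC2 with library totals (0.0318) and quality weights (0.0194), UQCRFS1 with size factors (-0.00717), no filter (-0.00967), a mean count of at least 50 (-0.00699), DESeq2 (-0.00739), quality weights (-0.0606) and GC removal (-0.04), and ATP5MC1 with quality weights (-0.0251). With a library left out the sign also changed for UQCRC2 (-0.0787 to 0.0409, positive without inhibitor 2 or DMSO 1), UQCRFS1 (-0.101 to 0.0492, negative without inhibitor 3 or DMSO 3), COX6B1 (-0.0447 to 0.0939, negative without inhibitor 1), SDHD (-0.237 to 0.00987, positive without DMSO 1), ATP5F1A (-0.366 to 0.0979, positive without DMSO 3) and ATP5MC1 (-0.11 to 0.163, negative without DMSO 3). Where no value above shows it, the cause was not tested. Same-numbered libraries deviated from their group means with correlations of -0.0414, -0.0378 and -0.0882. These values show no pairing by number, and with 3 libraries per group they cannot exclude it. With the replicate block 2 members were called, NDUFV3 (edgeR adjusted p = 0.0115) and NDUFS4 (0.0489), and 328 of all genes in place of 434, while PDSS1 was not called (0.0711). Genes with few counts, such as ATP5MGL and NDUFC2, are limited by depth.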

Other observations

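Some subunit genes had few counts on this panel. COX7A2 had 0.802 to 2.05 CPM over the 6 libraries, NDUFC1 0.735 to 1.43 CPM, NDUFC2 0.208 to 1.24 CPM, NDUFB3 2.4 to 5.17 CPM and NDUFB6 3.13 to 7.99 CPM. In the same libraries other subunit genes of their complexes, such as COX6A1 at 636 to 834 CPM and NDUFB5 at 339.6 to 425 CPM, were read at far higher levels. As levels of different genes are not comparable on this panel, these values do not rank the transcripts. PPARGC1A, a coactivator of mitochondrial biogenesis, had 13, 13 and 11 counts with the inhibitor and 31, 17 and 16 with DMSO, with no overlap between groups (log2 fold change -0.71, SE 0.335, edgeR adjusted p = 0.262).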
